A study of Mus musculus with 48 samples.

Results

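Total RNA of the knockdown line was compared between a late window, 40, 42, 44 and 46 h after serum, and an early window, 24, 26, 28 and 30 h after serum. The members are 8 of the 48 libraries of the study, the 4 late and the 4 early total RNA libraries of the shBmal1 line, chosen by line, kind of RNA and time point alone. The cells were NIH 3T3, immortalised mouse embryonic fibroblasts whose circadian clock can be followed in culture. Cells of the shBmal1 line carried a hairpin against Bmal1, a core activator of that clock, whose gene is listed as Arntl. Cells of the shCTRL line, set beside them here, carried a control hairpin. All cells of both lines grew in medium with fetal bovine serum, had been put in 50% horse serum for 2 h to synchronise their clocks, and were collected every 2 h. RNA of all cultures held 4-thiouridine (4sU), a uridine analogue that marks newly made RNA. From each culture 30 ug of RNA entered a pull-down of the marked RNA, and the rest served as total RNA.

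Beside the shBmal1 total RNA stand the 4 late and 4 early total RNA libraries of shCTRL, and the 4 late and 4 early 4sU libraries of shBmal1, which were read over introns as a measure of newly made transcripts. Each time point of a line and kind of RNA had 1 library, so the 4 time points of a window stand in for replicates. The spread within a window holds any change over its hours. The labels do not say whether time points came from separate cultures or whether the line was 1 clone, so p-values measure only the spread between these libraries.

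Serum drives resting fibroblasts into the cell cycle and resets their clocks, after which the clock runs on without it. In that clock Bmal1 and Clock activate the Per and Cry genes through E-box elements, and the Per and Cry proteins then repress their own activation. Genes of DNA synthesis follow the E2F factors and genes of mitosis follow a complex that binds the CHR element, so both sets are high in dividing and low in resting fibroblasts. Resting fibroblasts are known for making collagen, matrix proteases, complement and acute phase proteins.

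Depth, recovered from the deposited values, was 50977879 to 66214875 reads in the late and 52602214 to 62137168 reads in the early shBmal1 total libraries, and 62955296 to 69862857 (late) and 53931845 to 76260143 (early) in shCTRL. Some libraries stood apart from the others of their window. In the late window 20 genes of 10210 with a mean of at least 1 RPKM were at least 1 log2 unit above the other late libraries at 46 h, against 2 at 40 h, 0 at 42 h and 1 at 44 h. Within the early window the 26 and 30 h libraries differed from the 24 and 28 h libraries. The SD across genes of that log2 difference was 0.254, against 0.139 and 0.142 for the other pairings of the 4 libraries. Across the same genes that difference had a correlation of r = 0.261 with log2 exon length, and the part of exon length in the results was not tested. The same split was seen in the 4sU exon values of the same cultures (r = 0.756 across 10877 genes, which are not independent). Counts without these libraries stand beside the results they move.

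Levels are in RPKM (reads per kilobase of exon, relative to library depth) scaled to the median gene of the total RNA libraries, and are listed in time order within a window. Differences are late minus early on the log2(scaled RPKM + 0.1) scale, which understates the change of low genes, with the standard error of the limma fit. A gene was called at a Benjamini-Hochberg adjusted p under 0.05 over all genes tested, here 10877 of 11313.

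Arntl, the targeted gene (chromosome 7, 113178471 to 113314126, GRCm38.p6), had 4.202, 4.03, 3.599 and 4.14 RPKM in the late and 2.25, 3.31, 2.66 and 3.43 RPKM in the early shBmal1 libraries. In shCTRL it had 13.5, 8.37, 4.202 and 3.28 RPKM in the late and 1.33, 2.26, 4.73 and 9.10 RPKM in the early libraries. The shBmal1 library was thus the lower at 28, 30, 40, 42 and 44 h and the higher at 24, 26 and 46 h, where the gene was low in shCTRL. Within shBmal1 the windows did not overlap, and the log2 difference was 0.46 ± 0.13 (limma adjusted p = 0.0215). That call was lost on the RPKM as deposited (0.39, adjusted p = 0.0592) and without the 24, 40, 42 or 46 h library (adjusted p of 0.0643, 0.0530, 0.0565 and 0.0535). Without the 24 and 28 h libraries the difference was 0.24 (adjusted p = 0.111), and a linear term for time with 24-h terms did not call it.

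The question put by the comparison is which RNAs had moved between the beginning and the end of the time course in the knockdown line. Of the 10877 genes, 1053 (9.68%) were higher and 1179 (10.8%) lower late by limma. The median absolute difference of the called genes was 0.40. Only 19 (0.175%) of the higher and 33 (0.303%) of the lower genes moved by at least 1 log2 unit. Across all genes the median was 0.02. On the RPKM as deposited, without scaling, the split was 608 higher and 1929 lower, with a median of -0.05 over all genes. Without the 26 and 30 h libraries limma called 1947 higher and 2112 lower, and without the 24 and 28 h libraries 1221 and 1264. A linear term for time with 24-h terms over 12 libraries called 166 higher and 318 lower, and kept 421 of the 2232 calls. Among the calls it lost were Ccl5, C4b, Lbp, Chchd10, Klk10, Hist1h2bp, Mmp11, Col3a1, Col1a1 and Fos. The windows lie 16 h apart, so passage of time and phase of a daily rhythm cannot be told apart in the window test. Leaving out single libraries gave 600 to 1448 higher and 800 to 1671 lower genes, with the fewest higher without the 44 h (600), 24 h (618), 42 h (624) or 26 h (693) library. Late and early values did not overlap in 1254 higher genes (11.5%) and 1328 lower genes (12.2%). At 32 to 38 h the mean level fell between the early and late means for 1011 of the 1053 higher and 1121 of the 1179 lower genes. Called genes were chosen for early and late means that lie apart, which by itself favours a middle mean between them. The share over all genes was not computed.

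Chemokine, acute phase and complement genes were among the largest rises. Ccl5, a chemokine that draws leukocytes, had 2.42, 1.79, 2.08 and 1.57 RPKM late, against 0.478, 0.663, 0.212 and 0.467 RPKM early (1.95 ± 0.23, limma adjusted p = 9.80e-05), on 43 to 73 reads in each late and 7 to 23 in each early library. Saa3, an acute phase serum amyloid, had 37.0, 29.0, 32.6 and 26.7 RPKM late and 5.95, 7.13, 11.5 and 10.0 RPKM early (1.88 ± 0.17, 2.32e-05). In both genes every late library lay above every early one, as the rule that named the leading genes required. C3, the central complement component, was by far the most abundant of the leading genes, with 308, 312, 335 and 292 RPKM late and 90.6, 99.2, 126 and 114 RPKM early (1.55 ± 0.10, 1.20e-06). C4b, another complement component, averaged 3.51 ± 0.38 RPKM late and 1.43 ± 0.38 RPKM early (SD, n = 4 each). Lbp, which binds bacterial lipopolysaccharide, averaged 5.57 ± 0.92 and 1.82 ± 0.43 RPKM, and Nos2, the inducible nitric oxide synthase, 2.17 ± 0.22 and 0.595 ± 0.321 RPKM, each late and early in that order.

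A matrix proteoglycan and a matrix protease were among the other large rises. Ogn, a small matrix proteoglycan also called osteoglycin, had 2.25, 2.47, 2.08 and 3.30 RPKM late and 0.561, 0.732, 0.644 and 0.565 RPKM early (1.84 ± 0.15, limma adjusted p = 1.36e-05). Adamts5, a protease that cuts aggrecan, had 9.605, 10.3, 11.1 and 12.3 RPKM late and 3.89, 4.85, 5.16 and 6.11 RPKM early (1.11 ± 0.12, 6.80e-05). Gadd45a, a stress-induced gene of growth arrest, had 54.9, 51.9, 51.9 and 103 RPKM late and 26.5, 23.7, 26.7 and 30.2 RPKM early, so its 46 h library stood far above the rest. Its difference of 1.22 ± 0.18 was 0.98 without the 46 h library, and without the 24 and 28 h libraries, at 1.22, it missed the test (limma adjusted p = 0.0664). E230016M11Rik, a long noncoding RNA, rose by 1.12 ± 0.17 with the same peak at 46 h (14.4 RPKM, against 7.58 to 7.90 RPKM in the other late libraries). It overlaps Gadd45a on chromosome 6, and no source used here says whether the counting used strand, so the reads of the pair cannot be told apart. Lrrn4cl rose by 1.17 ± 0.11 and Chchd10, which encodes a mitochondrial protein, by 1.33 ± 0.26. The Chchd10 value was 0.88 without the 26 and 30 h libraries.

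**Figure D1:**
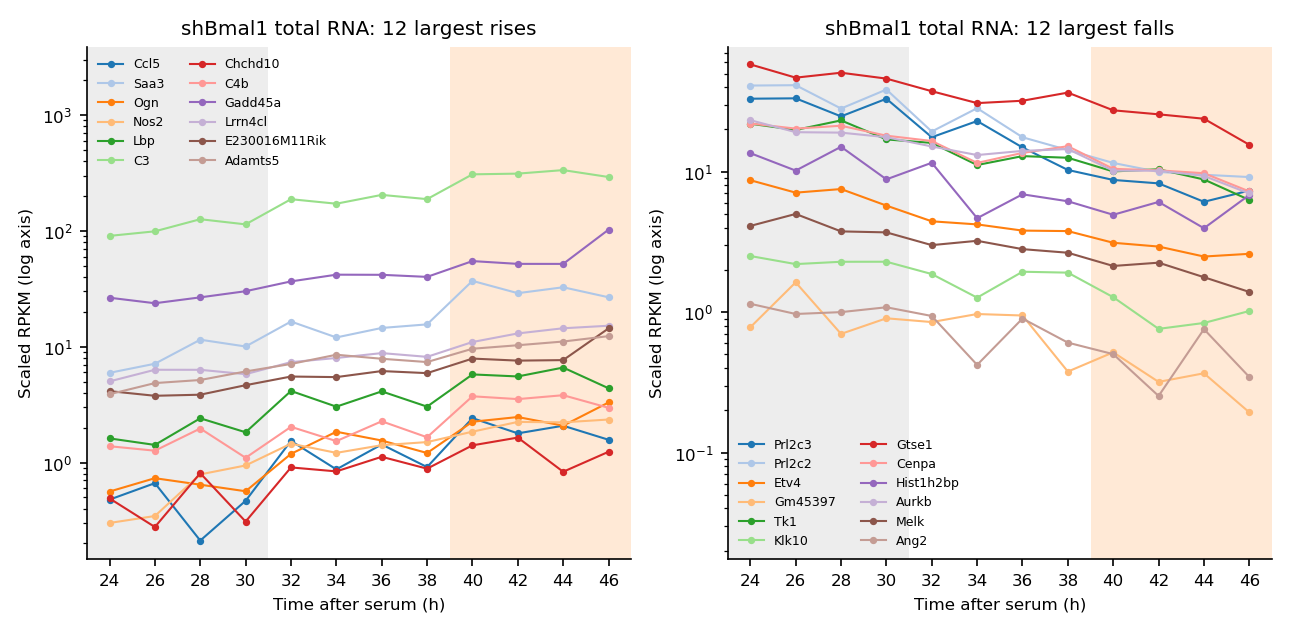
Scaled RPKM (log axis) of the 12 largest rises and the 12 largest falls in the 12 shBmal1 total RNA libraries, by hours after serum, 1 point per library, with the late window shaded orange and the early window grey. All 24 genes have late and early values that do not overlap, since the genes were chosen so, and Gadd45a and E230016M11Rik show a peak at 46 h.

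The proliferins led the falls. These are placental hormones of the prolactin family that growing mouse 3T3 cells also make. Prl2c3 had 8.74, 8.26, 6.11 and 7.34 RPKM late and 33.1, 33.3, 24.8 and 33.1 RPKM early (-2.02 ± 0.12, limma adjusted p = 1.20e-06). Prl2c2 had 11.5, 9.97, 9.51 and 9.16 RPKM late and 41.1, 41.3, 28.2 and 38.5 RPKM early (-1.87 ± 0.12, 1.20e-06). The ratio of the late to the early level was 0.247 for Prl2c3 and 0.274 for Prl2c2. Both genes are near-identical copies on chromosome 13, so how reads were split between them is uncertain. Etv4, an ETS transcription factor downstream of growth factor signals, had 3.12, 2.93, 2.49 and 2.60 RPKM late and 8.70, 7.09, 7.53 and 5.74 RPKM early (-1.34 ± 0.12, 2.32e-05). Klk10, a secreted kallikrein protease, averaged 0.974 ± 0.230 RPKM late and 2.32 ± 0.133 RPKM early.

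Genes of cell division were among the remaining large falls. In bulk RNA, fewer dividing cells and less of these RNAs per cell cannot be told apart. Tk1, the thymidine kinase of S phase, had 10.0, 10.4, 8.80 and 6.29 RPKM late and 21.97, 19.8, 23.2 and 17.0 RPKM early (-1.21 ± 0.14, limma adjusted p = 9.80e-05); it overlaps Afmid in the annotation. Gtse1, a microtubule-bound protein of G2 and S phase, fell by 1.15 ± 0.14, Cenpa, the histone H3 variant of centromeres, by 1.12 ± 0.11, and the kinase gene Melk by 1.11 ± 0.15. Hist1h2bp, a histone H2B gene whose reads other H2B copies can share, averaged 5.45 ± 1.27 RPKM late and 11.9 ± 2.89 RPKM early. Ang2, an angiogenin-family ribonuclease with close copies (-1.11 ± 0.22), and Gm45397 (-1.28 ± 0.25) rested on 12 to 46 reads in each late library.

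Every mitotic gene measured was lower late. Of 29 G2/M genes tested, 29 were lower and 0 higher, against 10.8% lower of all genes, with a list median of -0.89. Aurkb, the kinase of the chromosomal passenger complex, had 10.2, 10.2, 9.33 and 7.0015 RPKM late and 23.3, 19.1, 18.98 and 17.6 RPKM early (-1.11 ± 0.12, limma adjusted p = 6.20e-05). Plk1, a kinase of mitotic entry, had 14.8, 12.6, 11.5 and 9.27 RPKM late and 30.7, 23.02, 25.7 and 21.9 RPKM early (-1.07 ± 0.13, 0.000143). Cdc20, an activator of the anaphase-promoting complex, had 29.8, 28.1, 27.5 and 23.1 RPKM late and 65.8, 54.4, 57.4 and 50.9 RPKM early (-1.07 ± 0.09, 2.32e-05). Aurka, the spindle pole kinase, fell by 1.03 ± 0.10. In these genes the 46 h library was the lowest of all 8. The smallest called falls of the list were in Cenpf (-0.50), Cenpe (-0.55) and Ncapg (-0.59), all under 2 RPKM early. Without the 26 and 30 h libraries 27 of 28 tested members were called lower, and without the 46 h library 29 of 29.

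The CHR letters TTTGAA, searched on both strands from 250 bases before to 50 after the gene start, were in 20 of the 25 G2/M promoters that RefSeq lists (80.0%), against 11.8% of the 8340 promoters of all tested genes. They were in 19.5% of the promoters of genes lower late and 8.15% of those of genes higher late. The windows below come from RefSeq on GRCm38.p6 and show the match in 4 of the G2/M genes with the largest falls, with the match in capitals. They lie at chr7:122159440-122159484 on the plus strand (Plk1), chr4:118437331-118437386 on the minus strand (Cdc20), chr2:172370521-172370563 on the minus strand (Aurka) and chr2:164769875-164769930 on the plus strand (Ube2c).
Plk1: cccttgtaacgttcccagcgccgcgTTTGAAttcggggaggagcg
Cdc20: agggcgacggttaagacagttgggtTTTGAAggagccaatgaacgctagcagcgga
Aurka: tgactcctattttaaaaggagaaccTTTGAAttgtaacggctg
Ube2c: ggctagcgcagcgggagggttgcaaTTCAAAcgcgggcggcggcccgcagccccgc
In Cdc20 and Ube2c the match begins 18 and 29 bases before the gene start, and in Plk1 and Aurka 31 and 33 bases into the gene. Ube2c, the ubiquitin conjugase that works with the anaphase-promoting complex, carries it on the opposite strand. A match is a description of these letters and not shown to be a bound site.

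Most DNA replication genes fell too. Of 29 G1/S and DNA replication genes tested, 23 were lower and 0 higher, against 10.8% and 9.68% of all genes. The list median was -0.76. Rrm2, a subunit of the enzyme that makes deoxynucleotides, had 8.35, 8.58, 7.81 and 7.597 RPKM late and 17.2, 17.8, 15.9 and 15.95 RPKM early (-1.04 ± 0.07, limma adjusted p = 5.43e-06). Mcm5, part of the replicative helicase, had 10.6, 9.06, 9.43 and 7.34 RPKM late and 20.6, 18.02, 20.4 and 17.0 RPKM early (-1.06 ± 0.11, 4.15e-05). Chaf1b, of the chromatin assembly factor behind the fork, had 5.50, 5.01, 5.35 and 4.96 RPKM late and 11.7, 11.7, 10.6 and 9.62 RPKM early (-1.05 ± 0.09, 1.36e-05). The helicase genes Mcm2 to Mcm7 all fell, by 0.69 (Mcm2) to 1.06 (Mcm5). The E2F activators themselves did not pass the test, E2f1 at -0.14 (limma adjusted p = 0.272) and E2f2 at -0.12 (0.547). Gins2 at 0.01, Slbp at -0.21, Ccne2 at -0.17 and Rfc4 at -0.28 also missed it.

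The E2F letters TTTCCCGC or TTTGGCGC, on either strand, were in 9 of 23 G1/S promoters (39.1%) against 3.32% of all 8340, 6.55% of genes lower late and 1.66% of genes higher late. The CHR letters were in 3 of the 23 G1/S promoters. Shown for 4 helicase genes, with the match nearest to the gene start in capitals, are the windows at chr8:75109335-75109392 (Mcm5, plus strand), chr1:20820263-20820318 (Mcm3, minus strand), chr1:128359720-128359777 (Mcm6, minus strand) and chr5:138172016-138172073 (Mcm7, minus strand) of GRCm38.p6, from RefSeq.
Mcm5: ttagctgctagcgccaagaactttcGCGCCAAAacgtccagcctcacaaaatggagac
Mcm3: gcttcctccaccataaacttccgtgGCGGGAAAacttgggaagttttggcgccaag
Mcm6: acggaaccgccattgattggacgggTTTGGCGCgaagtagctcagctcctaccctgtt
Mcm7: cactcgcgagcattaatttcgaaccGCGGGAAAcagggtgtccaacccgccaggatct
These genes and windows were chosen after the values of the genes had been seen.

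Most genes of the inflammatory list rose. Of 20 tested members of the inflammatory and NF-kB list, 14 were higher and 0 lower, against 9.68% higher of all genes, with a list median of 0.42. Besides Ccl5, Saa3 and C3, Lcn2, an iron-scavenging lipocalin, had 8.34, 6.9975, 7.65 and 9.55 RPKM late and 3.48, 3.16, 4.61 and 3.79 RPKM early (1.10 ± 0.12, limma adjusted p = 6.92e-05). The chemokine genes Cxcl1, Cxcl5, Ccl7 and Ccl2 rose by 0.81, 0.71, 0.63 and 0.59. Ccl2 was the most abundant of the list, at a mean of 698 RPKM late and 466 RPKM early. The inhibitors Nfkbia (0.28) and Tnfaip3 (0.40) and the subunit Nfkb1 (0.26) also rose. Not passing the test were Lif (0.03), Nfkb2 (0.09), Relb (0.14), Ptgs2 (0.21), Ptges (-0.22) and Il1rl1 (-0.11). The 46 h library was the highest for the list median, 0.68 above the early mean, against 0.34 to 0.40 at 40 to 44 h, and without it 13 members were called.

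C/EBP letters are shown for Saa3, whose promoter is a known target of those factors. TTGCNNAA, on either strand, was in 5 of 13 inflammatory promoters (38.5%), against 7.71% of all 8340. It was in 8.79% of the promoters of genes higher late and 7.40% of those of genes lower late. The letters GGGNNTTCC, a narrow form of an NF-kB site, were in 2 of 13 (15.4%), against 7.53% of all. They were in 7.39% of the promoters of genes higher late and 7.40% of those of genes lower late. Sites with another spacing between GGG and TTCC were not searched, so this is not a count of NF-kB sites. The Saa3 promoter at chr7:46715627-46715926 (GRCm38.p6, RefSeq, minus strand) holds 1 C/EBP match, in capitals, which begins 99 bases before the gene start.
Saa3: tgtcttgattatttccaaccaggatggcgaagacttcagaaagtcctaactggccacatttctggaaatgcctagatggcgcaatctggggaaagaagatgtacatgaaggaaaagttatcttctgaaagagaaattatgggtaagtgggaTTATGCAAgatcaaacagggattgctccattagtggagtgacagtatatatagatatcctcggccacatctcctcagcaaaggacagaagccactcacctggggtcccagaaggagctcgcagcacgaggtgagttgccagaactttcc

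**Figure D2:**
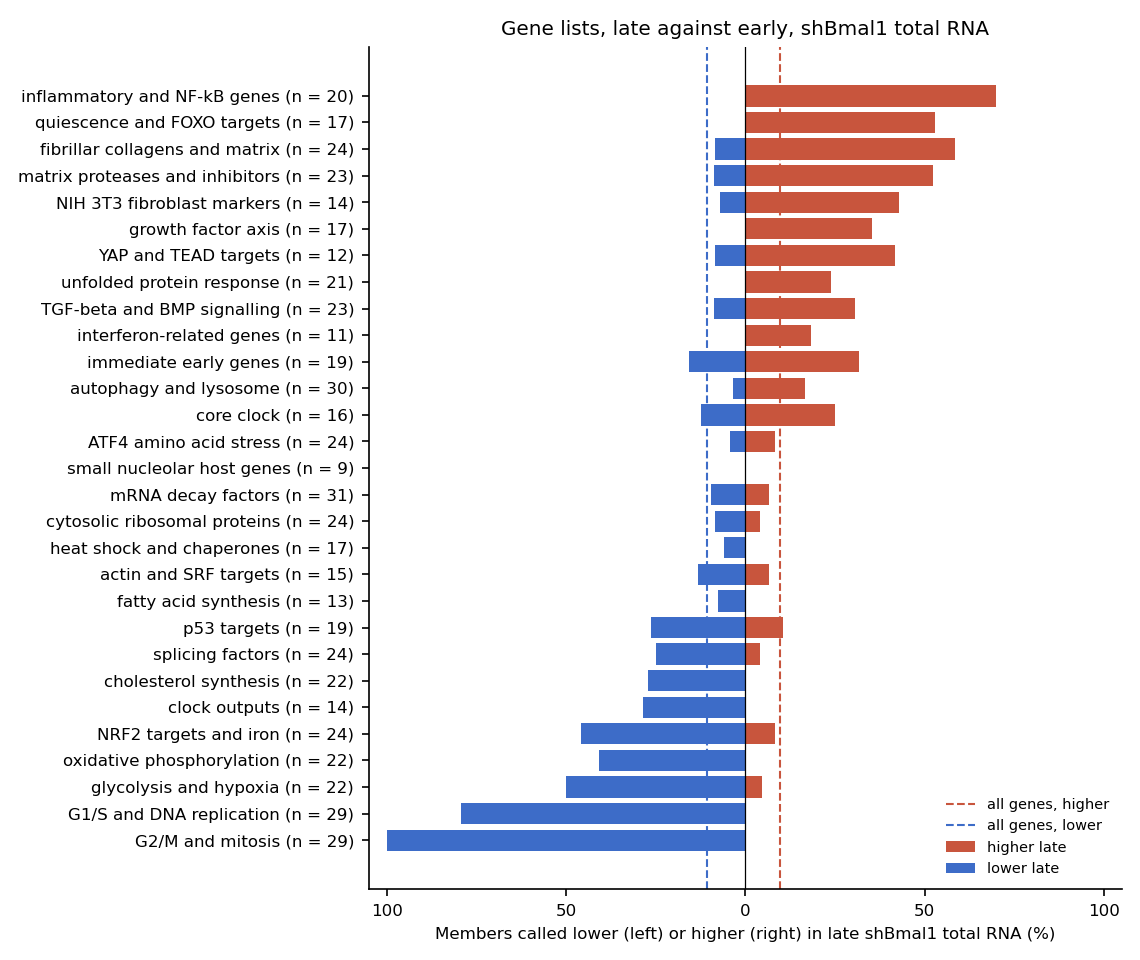
Share of the tested members of each gene list called lower (blue, left) or higher (red, right) late in shBmal1 total RNA, by limma at an adjusted p under 0.05, for lists with at least 9 tested members (n after each name). Dashed lines are the shares over all 10877 genes, 10.8% lower and 9.68% higher, and the G2/M bar reaches 29 of 29.

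Of 24 fibrillar collagen and matrix genes, 14 were higher, 2 lower and 8 not called, against 9.68% higher and 10.8% lower of all genes, with a list median of 0.29. Fn1, fibronectin, had 1413, 1404, 1497 and 1324 RPKM late and 743, 737, 927 and 754 RPKM early (0.84 ± 0.08, limma adjusted p = 4.15e-05). Col5a2, a fibril-forming collagen chain, had 101, 102, 104.7 and 98.8 RPKM late and 54.9, 57.0, 59.1 and 62.4 RPKM early (0.80 ± 0.06, 1.36e-05). Dcn, the proteoglycan decorin, averaged 66.4 ± 3.30 RPKM late and 37.6 ± 8.33 RPKM early. Col3a1 (0.77), the crosslinking oxidase gene Lox (0.76), Thbs2 (0.75), Fbn1 (0.67), Col1a1 (0.48) and Col1a2 (0.44) rose as well. Tnc, tenascin C, went the other way, at 1.06, 1.07, 0.884 and 1.02 RPKM late and 2.51, 2.23, 2.15 and 1.75 RPKM early (-1.02 ± 0.13, 0.000134), and so did Col6a3 (-0.51). Sparc rose by 0.20, while Bgn (0.05), Vcan (-0.05) and Thbs1 (0.15) missed the test.

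Of 23 matrix proteases and inhibitors 12 rose and 2 fell. This and the following list counts stand against 9.68% higher and 10.8% lower of all genes. Mmp11, a stromal metalloprotease, had 73.3, 68.6, 63.6 and 62.2 RPKM late and 34.2, 35.2, 43.1 and 35.8 RPKM early (0.85 ± 0.08, limma adjusted p = 4.15e-05). Adamts2, which trims procollagen, rose by 0.73 ± 0.09 and Adamts1 by 0.58 ± 0.09. Mmp9 (0.55), Mmp2 (0.46) and Mmp14 (0.42) were also higher. Timp1, an inhibitor of metalloproteases, fell (-0.34 ± 0.08). Called members of the TGF-beta and BMP list were 7 higher and 2 lower of 23. Ltbp2, named for the latent TGF-beta binding protein family, rose by 0.58 ± 0.08 and the co-receptor gene Tgfbr3 by 0.54 ± 0.07. The BMP-induced inhibitors Id3 (-0.60 ± 0.13) and Id2 (-0.46 ± 0.14) fell. The Id3 and Id2 windows overlapped. The Id2 call was lost without the 26, 40, 42 or 44 h library and, at -0.22, without the 26 and 30 h libraries (limma adjusted p = 0.151), and the Id3 call without the 24 and 28 h libraries (-0.49, 0.0602). Of 12 YAP and TEAD targets 5 rose, with Amotl2 at 0.80 ± 0.10, and 1 fell, and of 17 growth factor genes 6 rose. Fgf7, a fibroblast growth factor that acts on epithelium, rose by 0.75 ± 0.12, and Igfbp4, which binds insulin-like growth factors, by 0.48 ± 0.09.

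Of 17 genes tied to quiescence and the FOXO factors, 9 rose and 0 fell, against 9.68% and 10.8% of all genes. Ypel3, a gene of growth arrest, had 31.1, 28.2, 28.2 and 28.6 RPKM late and 18.1, 16.8, 22.2 and 15.1 RPKM early (0.70 ± 0.10, limma adjusted p = 0.000462). Pik3ip1, an inhibitor of PI3-kinase, had 13.3, 12.1, 12.1 and 11.7 RPKM late and 7.91, 7.77, 9.27 and 8.10 RPKM early (0.57 ± 0.08, 0.000369). Klf9 and Pink1 rose by 0.51 each, Cdkn1b, the inhibitor p27 of cyclin-dependent kinases, by 0.36 and Foxo3 by 0.34. Btg1 and Tob1, both at 0.01, did not pass the test. Without the 24 and 28 h libraries 5 of the 17 were called. Immediate early genes split into 6 higher and 3 lower of 19: Fos was at 3.38, 3.68, 3.46 and 5.28 RPKM late and 2.46, 1.30, 2.32 and 1.77 RPKM early (0.99 ± 0.19), while the phosphatase genes Dusp5 (-0.70 ± 0.14) and Dusp4 (-0.70 ± 0.15) fell. Egr1 was at 29.5 RPKM at 46 h and 12.9 to 13.8 RPKM in the other late libraries, and its rise of 0.81 was 0.53 without 46 h. The Egr1 call was lost without the 28 h (limma adjusted p = 0.0588) or the 30 h library (0.0642) and without either early pair (0.205 without 26 and 30 h, 0.185 without 24 and 28 h).

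Of 22 glycolysis and hypoxia genes, 11 were lower, 1 higher and 10 not called, against 10.8% lower and 9.68% higher of all genes. Ldha, lactate dehydrogenase A, had 170, 166, 170 and 157 RPKM late and 265, 256, 286 and 263 RPKM early (-0.69 ± 0.07, limma adjusted p = 3.30e-05). Pkm, pyruvate kinase, had 385, 371, 367 and 331 RPKM late and 570, 513, 587 and 490 RPKM early (-0.57 ± 0.08, 0.000331). Tpi1 (-0.43), Pfkl (-0.42), Pgk1 (-0.41) and Eno1 (-0.37), all of the glycolytic chain, fell too. The member that rose was Adm, the hypoxia-inducible peptide adrenomedullin, at 26.8, 26.01, 30.1 and 27.6 RPKM late and 11.2, 12.2, 14.8 and 15.2 RPKM early (1.05 ± 0.10, 2.63e-05). Among 24 NRF2 targets and iron genes 11 fell, 2 rose and 11 were not called. Nqo1, a quinone reductase, had 9.35, 9.32, 8.97 and 8.15 RPKM late and 17.4, 17.7, 18.6 and 16.5 RPKM early (-0.96 ± 0.07, 1.07e-05). The antioxidant genes Gsta4 (-0.59) and Srxn1 (-0.56) fell, whereas Aldh3a1 (0.57) and Fth1 (0.37) rose.

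The counts of the mitochondrial, sterol and remaining lists stand against 9.68% higher and 10.8% lower of all genes. All 22 oxidative phosphorylation genes had a negative difference, of which 9 passed the test. Ndufb8, of complex I, had 62.2, 54.8, 57.0 and 52.1 RPKM late and 83.2, 70.4, 92.1 and 73.0 RPKM early (-0.49 ± 0.09). Of 22 cholesterol synthesis genes 6 fell, among them Ebp (-0.38) and Mvk (-0.33), and 0 rose. The Ebp call was lost without the 24, 44 or 46 h library. Of 24 splicing factors 6 fell and 1 rose, led by U2af1 (-0.59 ± 0.08) and Srsf2 (-0.57 ± 0.11), and 12 fell without the 24 and 28 h libraries. In the unfolded protein response list 5 of 21 rose, with Crebrf at 0.64 ± 0.10, and 0 fell. Among 30 autophagy and lysosome genes 5 rose and 1 fell, but the list median of 0.05 was -0.02 on the RPKM as deposited, where 2 rose and 2 fell. Ribosomal protein genes were close to level, with 1 higher and 2 lower of 24; Rpl27 (-0.67) led, and such genes have processed copies that can share reads. Of 19 p53 targets 5 were lower, among them Mdm2 (-0.43 ± 0.08), and 2 higher. Of 11 interferon-related genes 2 rose. Of 31 mRNA decay factors 2 rose and 3 fell, and of 15 actin and SRF targets 1 rose and 2 fell, shares near those of all genes. Heat shock and fatty acid synthesis genes had 1 fall each, of 17 and 13. Of 9 small nucleolar host genes limma called 0, with 1 at an unadjusted p under 0.05, and limma voom called 0.

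Clock genes moved in both directions within the knockdown line. Of 16 core clock genes tested, 4 were higher and 2 lower, against 9.68% and 10.8% of all genes. Without the 46 h library 1 was higher and 3 lower, as on the RPKM as deposited. Per2, a clock repressor, had 2.63, 2.71, 2.52 and 3.39 RPKM late and 4.61, 5.19, 4.22 and 3.96 RPKM early (-0.66 ± 0.12, limma adjusted p = 0.00155). Cry1, its partner in repression, had 6.71, 7.54, 7.41 and 7.76 RPKM late and 8.32, 8.75, 9.63 and 9.82 RPKM early (-0.31 ± 0.08, 0.0193), a call lost without the 40 h (0.0627) or the 44 h library (0.0534). Rora, an activator of Arntl, had 1.48, 1.52, 1.43 and 1.69 RPKM late and 0.881, 0.973, 1.15 and 1.02 RPKM early (0.56 ± 0.12, 0.00495). The kinase gene Csnk1e (0.22 ± 0.06) passed narrowly, and the call was lost when any 1 late library was left out. Nr1d1, a repressor of Arntl, had 21.99, 25.4, 26.8 and 23.8 RPKM late and 28.1, 20.02, 17.1 and 12.2 RPKM early, windows that overlapped (0.40 ± 0.18, adjusted p = 0.133). Clock (0.22), Per1 (0.22), Cry2 (0.23), Nr1d2 (0.02), Per3 (-0.41), Ciart (-0.58), Bhlhe40 (0.01), Bhlhe41 (-0.05) and Csnk1d (0.04) did not pass the test either. Without the 46 h library Ciart passed at -0.89. Nr1d1 passed without the 24 h library (0.60, adjusted p = 0.0125) and was at 0.20 without the 30 h library. Per3 passed without the 30 h library (-0.53, 0.0119), on the RPKM as deposited (-0.47, 0.0441) and by limma voom (-0.43, 0.0470).

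Of 14 clock output genes 4 fell and 0 rose, against 10.8% and 9.68% of all genes. Tef, a transcription factor under direct clock control, had 8.89, 9.36, 9.83 and 8.55 RPKM late and 18.3, 14.3, 14.9 and 11.2 RPKM early (-0.66 ± 0.12, limma adjusted p = 0.00204). Wee1, a kinase that holds back mitosis, averaged 5.00 ± 0.375 RPKM late and 7.71 ± 0.555 RPKM early. Usp2 (-0.37) and Cdkn1a, the inhibitor p21 (-0.36), were the others. The Usp2 call was lost without the 24, 44 or 46 h library, and the Cdkn1a call without the 24, 28, 42, 44 or 46 h library. Without the 24 and 28 h libraries Usp2 was at -0.29 (limma adjusted p = 0.105) and Cdkn1a at -0.16 (0.280). The Cry1 promoter, chr10:85185005-85185304 (GRCm38.p6, RefSeq, minus strand), is shown because Cry1 had the largest difference between the lines among the core clock genes. Its E-box CACGTG, in capitals, begins 60 bases before the gene start. CACGTG was in 10.7% of the 8340 promoters, 10.3% of those of genes lower late and 10.2% of those of genes higher late.
Cry1: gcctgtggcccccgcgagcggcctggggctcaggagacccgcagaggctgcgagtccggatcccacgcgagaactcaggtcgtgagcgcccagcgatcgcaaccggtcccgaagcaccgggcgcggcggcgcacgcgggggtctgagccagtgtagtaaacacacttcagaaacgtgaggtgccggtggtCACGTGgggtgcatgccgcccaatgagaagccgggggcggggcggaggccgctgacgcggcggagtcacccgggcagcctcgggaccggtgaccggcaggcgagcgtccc

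The 46 h library stood above the other late libraries in the genes of an amino acid stress list. Across all tested genes the SD of its log2 difference from those libraries was 0.224 to 0.257, against 0.165 to 0.180 between the others. All 24 tested members of the ATF4 amino acid stress list were higher at 46 h than at 40, 42 and 44 h. Of the 24, 21 were higher than in all 11 other shBmal1 total RNA libraries. The share of all genes with these orders was not counted, and some margins were small. Wars was at 22.05 RPKM at 46 h, up to 21.64 RPKM in the other late and up to 22.28 RPKM in the early libraries. Chac1, which breaks down glutathione, was at 142 RPKM at 46 h, 22.6 to 24.0 RPKM in the other late libraries and 16.8 to 19.5 RPKM early. Trib3, a pseudokinase induced by ATF4, was at 64.2, 13 to 14.3 and 11.3 to 15.03 RPKM in the same order. Mthfd2, of mitochondrial folate metabolism, was at 19.95, 6.31 to 7.55 and 6.11 to 7.40 RPKM, and the amino acid transporter gene Slc7a5 at 70.0, 28.3 to 28.9 and 24.8 to 35.8 RPKM. The window test, which averages 46 h with the rest, called 2 members higher and 1 lower, against 9.68% and 10.8% of all genes. Those were Atf5 (0.38), Cebpg (0.38) and Psat1 (-0.36), and without the 46 h library 2 were higher and 3 lower. Cebpg was not among the called genes without 46 h (0.28, limma adjusted p = 0.129), nor without the 24, 26, 28, 42 or 44 h library.

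**Figure D3:**
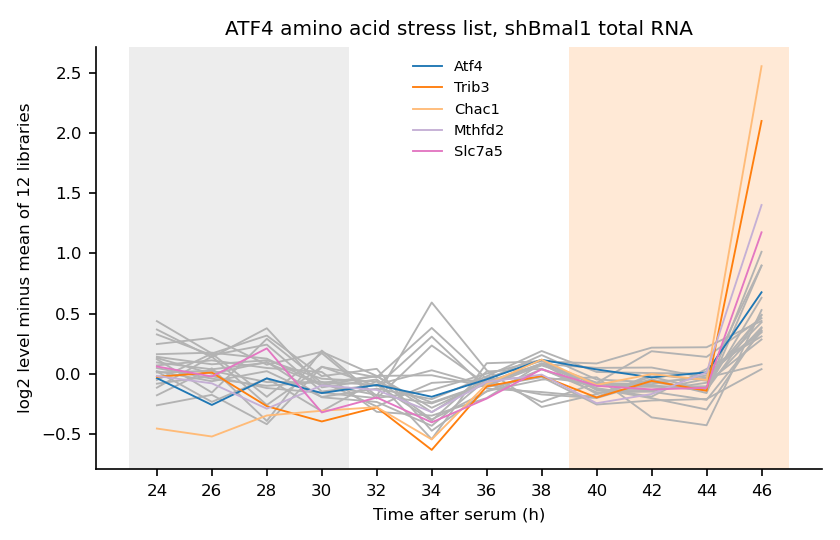
Log2 level of the 24 tested genes of the ATF4 amino acid stress list in the 12 shBmal1 total RNA libraries, minus each gene's mean over the 12, by hours after serum, with the late window orange, the early window grey and 5 genes in colour. Nearly all lines turn up at 46 h, where Chac1 reached 142 RPKM, against 22.6 to 24.0 RPKM in the other late libraries.

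Next it was asked whether the knockdown line moved differently from the control line. In shCTRL, limma called 376 genes (3.46%) higher and 496 (4.56%) lower late of 10880, with a split of 277 and 729 on the RPKM as deposited and of 194 and 250 without the 44 h library. Of the shBmal1 rises 169 were also called in shCTRL, 16.05% of the shBmal1 and 44.9% of the shCTRL rises, and of the falls 231, 19.6% of the shBmal1 and 46.6% of the shCTRL falls. The difference itself, shBmal1 late minus early less the same in shCTRL, was called for 247 of 10913 genes (2.26%) in the higher and 268 (2.46%) in the lower direction, or 210 and 367 as deposited and 358 and 253 with upper-quartile scaling. Leaving out single libraries gave 154 to 430 in the higher and 155 to 423 in the lower direction, the fewest without the shBmal1 44 h (154 higher) or 24 h library (155 lower) and the most without the shBmal1 28 h (430 higher) or 30 h library (423 lower). The lines were cultures of different cells, so anything else that differed between them cannot be told apart from the hairpin.

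**Figure D4:**
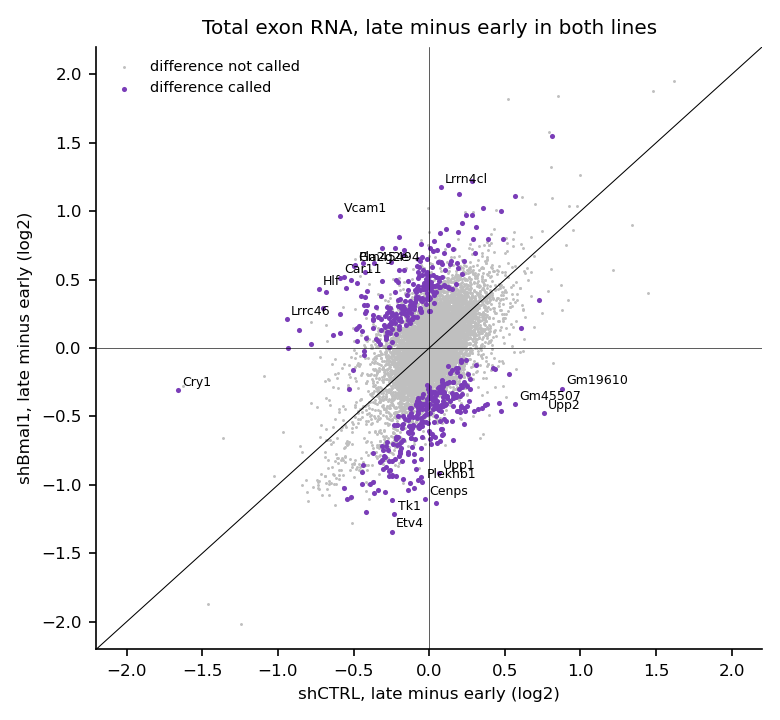
Late minus early (log2) of each gene in shBmal1 (y axis) and in shCTRL (x axis), total exon RNA, 1 point per gene, with purple points where limma called the difference between the lines. Genes on the diagonal moved alike, and Cry1 lies far to the left, at -0.31 in shBmal1 and -1.66 in shCTRL.

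Vcam1, a leukocyte adhesion molecule with the largest upward difference of the named genes, had 1.06, 1.1998, 1.47 and 1.43 RPKM late and 0.570, 0.511, 0.531 and 0.866 RPKM early in shBmal1, and averaged 1.27 ± 0.276 RPKM late and 1.94 ± 0.297 RPKM early in shCTRL. The difference was 1.56 ± 0.24 (limma adjusted p = 0.00118). Cry1, which fell by 0.31 in shBmal1, fell by 1.66 in shCTRL, where it had 2.33, 2.32, 3.00 and 3.47 RPKM late and 6.32, 9.21, 9.74 and 10.9 RPKM early (a difference of 1.35 ± 0.20, limma adjusted p = 0.000744). Hlf, a clock-driven transcription factor, averaged 0.846 ± 0.0885 RPKM late and 0.606 ± 0.116 RPKM early in shBmal1, against 0.665 ± 0.217 and 1.14 ± 0.135 RPKM in shCTRL (1.16 ± 0.24, 0.00978). Lrrc46 (1.15), Gm45494 (1.10), Car11, a carbonic anhydrase-related protein (1.10), Lrrn4cl (1.10) and Pla2g2e, a secreted phospholipase (1.10), followed. The Pla2g2e difference was lost without the shBmal1 42 h or the shCTRL 24, 40 or 44 h library. Per2 was at 0.71 ± 0.36, Nr1d1 at -1.05 ± 0.57 and Arntl at -0.41 ± 0.72, with limma adjusted p of 0.299, 0.364 and 0.841. Arntl ranged from 3.28 to 13.5 RPKM within the late shCTRL window alone.

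Downward the differences were led by Upp2 and Gm19610, at -1.24 ± 0.25 and -1.18 ± 0.21, which overlap Acvr1 and Ereg in the annotation. Etv4 averaged 4.203 ± 0.498 RPKM late and 5.03 ± 0.848 RPKM early in shCTRL, so its fall in shBmal1 was larger by 1.09 ± 0.18 (limma adjusted p = 0.00201). Upp1, a uridine phosphorylase, had 4.41, 4.83, 5.06 and 5.51 RPKM late and 11.1, 8.75, 10.1 and 7.98 RPKM early in shBmal1, while in shCTRL it averaged 4.95 ± 0.463 and 4.72 ± 0.314 RPKM (-0.98 ± 0.14, 0.000744). Tk1 (-0.98 ± 0.17), Cenps (-1.08 ± 0.28), Gm45507 (-0.98 ± 0.16) and Plekhb1 (-0.93 ± 0.22) were the others. The Cenps difference was lost without any of 8 single libraries, 4 of each line, at adjusted p of 0.0531 to 0.0718.

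Lists of the cell cycle held part of these differences. Of the 29 G1/S genes, 19 differed downward and 0 upward, against 2.46% of all genes. The list median was -0.76 in shBmal1 and -0.22 in shCTRL, where 13 members fell. Chaf1b (-0.76 ± 0.11, limma adjusted p = 0.000593), Rrm2 (-0.70 ± 0.10, 0.000593) and Mcm5 (-0.69 ± 0.13, 0.00555) were among them. Rrm2 had 8.26, 9.22, 8.86 and 10.1 RPKM late and 11.2, 11.5, 11.1 and 12.3 RPKM early in shCTRL, so the lines were close late and apart early. Of the 29 G2/M genes, 3 differed, all downward, with medians of -0.89 in shBmal1 and -0.49 in shCTRL, where 19 members fell. The difference between these counts was not itself tested.

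**Figure D5:**
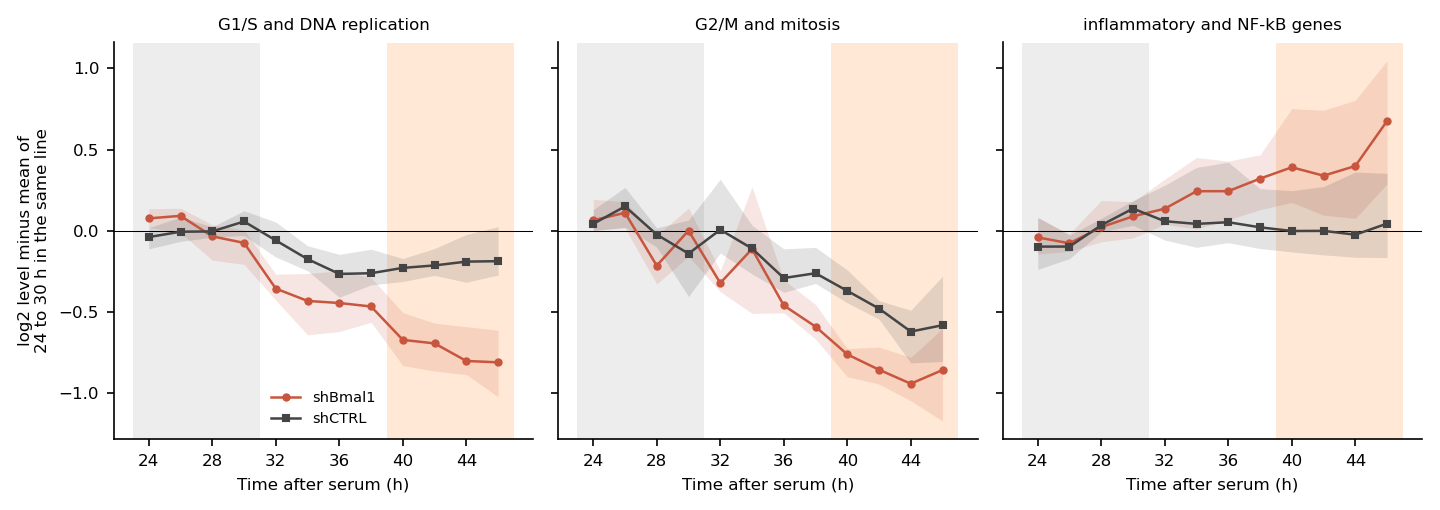
Median over the genes of 3 lists of the log2 level minus its early mean in the same line, by hours after serum, for shBmal1 (red circles) and shCTRL (dark squares), with the band from the 25th to the 75th percentile over genes and the late window orange, the early window grey. At 46 h the G1/S median was -0.81 in shBmal1 and -0.19 in shCTRL, and the inflammatory median 0.68 and 0.04.

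Several other lists held genes that differed between the lines. Of 22 glycolysis and hypoxia genes 9 differed downward, against 2.46% of all genes. Ldha had 125, 128, 126 and 131 RPKM late and 117, 119, 124 and 133 RPKM early in shCTRL, a level that stayed below all 8 shBmal1 libraries, and the difference was -0.74 ± 0.08 (limma adjusted p = 3.62e-05). Tpi1 (-0.51) and Pkm (-0.45) were others. Of 20 inflammatory genes 8 differed upward, against 2.26% of all genes, among them C3 (0.74 ± 0.15). C3 averaged 312 ± 17.7 RPKM late and 107 ± 15.8 RPKM early in shBmal1, and was more abundant in shCTRL, at 553 ± 32.8 RPKM late and 319 ± 60.2 RPKM early. Of 17 quiescence and FOXO genes 5 differed upward, with Pik3ip1 at 0.74 ± 0.10, Ypel3 at 0.59 and Pink1 at 0.53. Fn1 differed by 0.77 ± 0.11, at 1943, 2138, 1875 and 1826 RPKM late and 1789, 1671, 1978 and 1956 RPKM early in shCTRL. For Ccl5 and Saa3 the rises of the lines, 1.95 and 1.62 for Ccl5 and 1.88 and 1.48 for Saa3 in shBmal1 and shCTRL, gave differences of 0.33 ± 0.36 and 0.40 ± 0.30 with adjusted p of 0.707 and 0.536. For Prl2c3 the difference was -0.77 ± 0.28 (0.133).

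Last, the newly made intron RNA of the same shBmal1 cultures was set beside the total RNA. Of 10488 genes tested, limma called 130 (1.24%) higher and 342 (3.26%) lower late on the log2(scaled RPKM + 0.02) scale. Leaving out single libraries gave 51 (without 42 h) to 313 (without 24 h) higher and 227 to 414 lower genes. The sign was that of total RNA for 881 of 987 called rises (89.3%) and 954 of 1112 called falls (85.8%) that were tested. The share of matching signs over all genes was not computed, so what these shares add to it is not known. The 4sU and total libraries share cultures, so the layers are not independent. Prl2c2 intron RNA was at -2.0 (limma adjusted p = 0.000648), Lrrn4cl at 1.27 (0.00739), Saa3 at 1.28 (0.000347), C3 at 1.12 (0.00103) and Adm at 1.01 (0.000523). Of 28 G2/M genes 27 were lower, with Aurkb at -1.18 (0.00103), Plk1 at -1.16 (0.00720) and Aurka at -1.01 (0.00103), and a median of -0.99. Of 29 G1/S genes 15 were lower, led among those named by Mcm5 (-0.99, 0.000648). Tk1 at -0.15 (0.503) and Ldha at -0.29 (0.372) did not pass in this layer. The matrix gave 4 higher and 1 lower of 23, the inflammatory list 4 higher and 0 lower of 18.

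The cells had the markers of their label. Of 15 fibroblast markers 14 were tested, with a summed level of 5973 to 6488 RPKM late and 5460 to 6004 RPKM early. Of these 14, 6 were higher and 1 lower late, against 9.68% and 10.8% of all genes. Of 10 leukocyte markers 4 were tested, summing to 17.9 to 19.1 RPKM late and 21.9 to 24.0 RPKM early, and Cd14 was lower (-0.41). The 1 epithelial marker tested of 9, Krt14, was at 7.72 to 8.86 RPKM late and 9.63 to 13.3 RPKM early and was lower (-0.52). The 1 endothelial marker tested of 8, Cdh5, stayed under 1 RPKM in all 8 libraries and was lower (-0.75). Of 8 adipocyte markers 2 were tested, summing to 7.39 to 10.2 RPKM late and 5.48 to 7.16 RPKM early, with Lpl higher (0.60), a call lost without the 24 or 46 h library. The neural marker summed to 8.98 to 11.4 RPKM late and 7.26 to 9.72 RPKM early, and the 2 muscle markers to 2.45 to 3.22 RPKM late and 2.22 to 3.10 RPKM early. The part of these levels in the results was not tested.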

How the data were processed

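The authors deposited exon and intron RPKM tables of 11313 genes in 48 libraries, made from strand-specific, paired-end, ribosomal RNA-depleted reads per the labels. The submitters' processing notes name Trim Galore, HOMER 4.11.1, mm10 and GRCm38.p6; no source used here names the aligner. Exon RPKM of a gene step in whole reads, which gave each library's total and 1 exon length in the 8 libraries for 11311 genes. In shCTRL 760 of the genes came out with another length. The total found first, in 1 library, gave whole-number lengths for 36 of 40 low genes, against 29 for the next best total. RPKM were divided by the median ratio to the geometric mean library of the layer, given a pseudocount (0.1 exon, 0.02 intron), filtered at a mean of 0.5 (exon) or 0.1 (intron) RPKM, and fitted with limma 3.58.1 (trend, robust; R 4.3.3). The fit used the 8 libraries compared or, for the difference between lines, 16. The depth step and the fit were tested on simulated data. Annotation and sequences came from RefSeq, GRCm38.p6, with a promoter entry for 8340 of 10877 tested genes.

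The windows, the 36 lists and the tests were chosen with earlier results of these data known. Named were the 12 largest rises and falls among called genes with windows that did not overlap, a mean of at least 1 RPKM in the higher window and 1 exon length; all tested core clock genes; up to 4 called members per list; and 8 genes each way in the difference between the lines. Other members were named after their values were seen, to complete a list's account; some members that the lists count are not reported here by name. Of the leading and clock genes with a promoter entry that were searched, Ogn held CHR letters and is not printed. Prl2c3, Arntl, Rora and Csnk1e held none of the letters searched. Alternatives covered pseudocount, filter, scaling, variance model, time terms, a time point block and leaving out libraries.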

Additional observations from a re-analysis of the deposited data

Results flagged for a closer look

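In 21 of 292 windows of named genes (7.19%), 1 of the 4 shBmal1 total RNA libraries lay further from the others than Dixon's criterion allows, where chance gives about 5%. At 46 h the late window was led by that library in Gadd45a (102.5 RPKM), E230016M11Rik (14.4), Per1 (21.2), Cry2 (19.1), Egr1 (29.5), Psat1 (76.4), Fgf7 (16.3) and Klf9 (16.5), and it was the lowest in Tpm2 (12.6) and Srsf2 (41.2 RPKM). Of the other late libraries 40 h was the highest in Ypel3 (31.1) and 44 h in Col1a1 (626 RPKM). In the early window 24 h was the highest in Egr1 (10.5) and 26 h the lowest in Atg9b (6.17 RPKM). At 28 h Rpl27 (24.7) and Fn1 (927) were the highest and Prl2c3 (24.8 RPKM) the lowest. At 30 h Crim1 (14.4) was the highest, and Id3 (7.64), Cdh5 (0.602) and Cenps (2.04 RPKM) were the lowest.

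The late minus early difference in shBmal1 less that in shCTRL passed the limma test in 49 named genes. Named genes were chosen partly for this difference. On the log2 scale it was positive in C3 (0.74), Gadd45a (0.94), Lrrn4cl (1.10), E230016M11Rik (0.93), Adamts5 (0.54), Cry1 (1.35), Fn1 (0.77), Col5a2 (0.31), Adamts2 (0.73), Tgfbr3 (0.33), Gbp2 (1.06), Irf1 (0.51), Crebrf (0.70), Igfbp4 (0.50), Ypel3 (0.59), Pik3ip1 (0.74), Pink1 (0.53), Zfp36l1 (0.48), Vcam1 (1.56), Hlf (1.16), Lrrc46 (1.15), Gm45494 (1.10), Car11 (1.10) and Pla2g2e (1.10). It was negative in Etv4 (-1.09), Tk1 (-0.98), Klk10 (-0.78), Hist1h2bp (-0.86), Aurkb (-0.57), Mcm5 (-0.69), Chaf1b (-0.76), Rrm2 (-0.70), Rpl27 (-0.83), Ldha (-0.74), Pkm (-0.45), Tpi1 (-0.51), Tnc (-0.92), Wwc1 (-0.38), Psat1 (-0.39), Srxn1 (-0.38), Exosc2 (-0.36), U2af1 (-0.47), Srsf2 (-0.51), Upp2 (-1.24), Gm19610 (-1.18), Cenps (-1.08), Upp1 (-0.98), Gm45507 (-0.98) and Plekhb1 (-0.93).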

How the results depend on the processing

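On the RPKM as deposited the shBmal1 total RNA gave 608 higher and 1929 lower genes, and a linear term for time with 24-h terms over the 12 libraries gave 166 and 318. Without the 26 and 30 h libraries, an alternative chosen after seeing the data, the counts were 1947 and 2112, and the cause was not tested. In shCTRL the 24-h terms left 19 higher and 21 lower genes. In the 4sU introns, 173 genes were lower with a minimum mean 4 times higher, where fewer genes were tested, and 192 with the 24-h terms. Leaving out single libraries gave 600 to 1448 higher and 800 to 1671 lower genes in shBmal1, 154 to 430 and 155 to 423 in the difference between the lines, 194 to 578 and 250 to 617 in shCTRL, and 51 to 313 and 227 to 414 in the 4sU introns. Other changes of pseudocount, filter, scaling and variance model, and limma voom on the recovered reads (1148 and 1161), kept the shBmal1 counts within 1.5 times. With the 24-h terms the sign turned for Cry1 (0.0499), Rps6 (0.0340), Dis3 (0.00647) and Pla2g2e (-0.0257). Of 135 named genes called in shBmal1, 106 were called in every leave-one-out fit and 44 under all alternatives. A replicate block, a term for each time point shared by the lines and chosen after seeing the data, left 159 higher and 155 lower genes in the difference between the lines; of the 16 genes named for it, Cenps lost its call. The deviations of same-time libraries from their windows correlated across genes at -0.41 to 0.473, with the own time best in 2 of 8. Whether libraries of a time point also shared handling cannot be told from these values. Intron depth was not recovered, and genes with few reads, such as Ccl5 with 7 to 23 in each early library, are limited by counting error.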
